A study of Mus musculus with 1753 samples.

Results

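The potassium channel genes of mouse skeletal muscle fibroblasts and mural cells were followed here as a family. The members were all protein-coding genes with a symbol that starts with Kcn, apart from Kcnj8, which was not analysed. They numbered 93 of 21547 protein-coding genes in the count table and fell into 21 families by the letters after Kcn, the largest being Kcnj and Kcnk with 14 members each. A count was found for 81 members, 56 of them in 10 or more cells, and 12 members had no count in any of the 1753 cells. All members together took 0.0389% of the reads.

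Potassium channels let K+ leave the cell along its gradient and so hold or restore a negative membrane potential. In the mural cells of blood vessels, which are smooth muscle cells and pericytes, this potential gates voltage-dependent calcium channels and thereby contraction. The family comprises voltage-gated channels (Kcna to Kcnd, Kcnh, Kcnq and their silent partners Kcng and Kcns), inward rectifiers (Kcnj), tandem-pore leak channels (Kcnk), calcium-activated channels (Kcnma, Kcnn), sodium-activated channels (Kcnt) and accessory subunits (Kcnab, Kcne, Kcnip, Kcnmb). Fibroblasts are not electrically excitable, and their channels are less well known.

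The cells came from male mice aged 10 to 20 weeks, either C57BL6 or 1 of 4 reporter labels. Acta2GFP carries GFP under the promoter of smooth muscle actin, PdgfrbGFP under that of Pdgfrb, and Cspg4dsRED carries a red fluorescent protein under that of Cspg4. The PdgfraGFP - PdgfrbGFP pool combines cells of a Pdgfra and a Pdgfrb reporter line. Cells were sorted as positive for PDGFRα, PDGFRβ or a reporter and negative for the endothelial protein CD31, so the sort itself set which cells could be seen, and each strain label was taken as 1 replicate. Elastase was added to the dissociation for Acta2GFP, so this strain differs from the others in that step too. Cluster 7 (187 cells) was mural. The paper states that only a few pericytes, about 10, were captured from skeletal muscle. Mural values here therefore need not hold for pericytes. Clusters 2 and 9 were perimysial (328 cells, from the sheath around fibre bundles). Clusters 1, 3, 5, 6 and 8 were endomysial (1116 cells, from around single fibres), and cluster 4 was paramysial (60 cells, from the zone between). Cluster 10 (62 cells) is given no class name here. The paper describes it as a fibroblast subtype marked by Cspg4, Pdgfra and Ngfr, located beside nerve fibres. The clusters had been made by the authors from these same counts, so differences between clusters describe that partition and are no independent evidence for it.

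The cells held between 46097 and 1055869 counts each (median 258251). The median was lower in mural cells (156959 counts) than in endomysial cells (276881 counts). Within strains this held in all but Cspg4dsRED, where it was 128711.5 in mural and 107350 in endomysial cells. The part of depth in the shares of cells given below was not tested. Mural cells numbered 56 in Acta2GFP, 9 in C57BL6, 74 in Cspg4dsRED, 11 in the pool and 37 in PdgfrbGFP. All 7 mural markers (Myh11, Acta2, Tagln, Notch3, Mcam, Des and Rgs5) were called higher in cluster 7, where their summed level was 8266 to 13830 scaled counts per strain, against 80.8 to 484.1 in fibroblasts. All 5 fibroblast markers were lower there. Markers of other cells were seen in single strains. The 4 immune markers summed to 325.4 in the mural cells of C57BL6, where 4 of 9 cells carried more than 100, and to at most 7.51 in the other strains. The 5 endothelial markers reached 118.5 in the mural cells of the pool, from 1 cell. The 3 muscle stem cell markers reached 36.4 in those of Acta2GFP, from 3 cells, and 0 in the mural cells of the other strains.

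A promoter window, 250 bases before and 50 bases after a RefSeq start (GRCm38.p6), was at hand for 68 of the 93 members and for 6 of the 8 that were called higher in mural cells. The windows of 3 of these are shown because they held the 7 letters GTGGGAA, the core of sites bound by RBPJ, the nuclear partner of Notch receptors, and that of Kcnmb1 because it did not. Capitals mark GTGGGAA or, on the other strand, TTCCCAC. The Kcna5 window lies at chr6:126535506-126535805 (minus strand), that of Kcnab1 at chr3:65108764-65109063 (plus strand), that of Kcnh2, at a start inside the annotated gene, at chr5:24329542-24329841 (minus strand) and that of Kcnmb1 at chr11:33962763-33963062 (plus strand).
Kcna5: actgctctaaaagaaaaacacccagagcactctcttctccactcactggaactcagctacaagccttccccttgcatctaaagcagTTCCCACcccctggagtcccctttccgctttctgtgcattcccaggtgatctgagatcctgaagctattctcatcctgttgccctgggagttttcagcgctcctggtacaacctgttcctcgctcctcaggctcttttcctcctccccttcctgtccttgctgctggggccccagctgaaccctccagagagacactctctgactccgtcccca
Kcnab1: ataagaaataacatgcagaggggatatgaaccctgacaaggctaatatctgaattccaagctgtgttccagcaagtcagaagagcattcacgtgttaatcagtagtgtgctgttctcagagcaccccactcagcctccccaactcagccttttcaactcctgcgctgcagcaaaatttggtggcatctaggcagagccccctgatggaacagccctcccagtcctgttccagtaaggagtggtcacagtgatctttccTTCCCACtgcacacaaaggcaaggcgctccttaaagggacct
Kcnh2: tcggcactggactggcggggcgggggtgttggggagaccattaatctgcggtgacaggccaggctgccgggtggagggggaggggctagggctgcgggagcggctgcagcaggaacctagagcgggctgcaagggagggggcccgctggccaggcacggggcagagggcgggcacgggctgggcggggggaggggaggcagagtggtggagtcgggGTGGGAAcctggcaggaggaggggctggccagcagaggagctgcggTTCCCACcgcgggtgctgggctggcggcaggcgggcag
Kcnmb1: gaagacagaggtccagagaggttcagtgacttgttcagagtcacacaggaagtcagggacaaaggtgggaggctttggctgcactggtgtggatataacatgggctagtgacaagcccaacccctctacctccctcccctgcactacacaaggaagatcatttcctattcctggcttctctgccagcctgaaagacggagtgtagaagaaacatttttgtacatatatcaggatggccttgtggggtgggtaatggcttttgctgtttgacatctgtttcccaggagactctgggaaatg
The 7 letters, searched on both strands, occurred in 3 of the 8 windows of these 6 genes, in 5 of 93 windows of all members (5.38%) and in 2097 of 32851 windows of all genes (6.38%). The Kcnh2 window held them on both strands. The CArG box, the motif of serum response factor, was found in 0 of 93 member windows and in 535 of all windows (1.63%). TATAAA occurred in 5 of 93 member windows, among them another start of Kcnab1, and in 13.6% of all windows. These motifs were chosen after the levels had been seen, and a match is a description of letters, not of a site in use.

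Levels are given as mean counts per cell after each cell was scaled to 500000 counts, with the mean over strain labels and its SD. Summed over all members, the level was 773.8 ± 100.1 (SD, n = 5) in mural cells, with a lowest strain of 631, and 157.5 ± 52.8 (SD, n = 5) in fibroblasts, with a highest strain of 251.1. Among fibroblasts, cluster 10 stood highest with 362.2 ± 54.3 (SD, n = 3), followed by perimysial cells with 159.4 ± 23.97 (SD, n = 5) and endomysial cells with 132.2 ± 21.9 (SD, n = 5), and the strain values of the latter pair overlapped. With every cell thinned to 50000 counts, a mural cell held a count of 4.38 ± 1.47 members (SD, n = 5) and a fibroblast of 1.49 ± 0.55 (SD, n = 5). Without thinning these were 5.62 and 2.90 members. The mural sum came mostly from 5 families: Kcna (150.2), Kcnab (148.4), Kcne (132.4), Kcnmb (104.7) and Kcnh (78.1).

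Levels were divided by exon length, which allows genes to be compared. Among members called higher in mural cells, high mural levels were those of Kcne4 (49.8 scaled counts per kilobase of exon), Kcna5 (49.1) and Kcnmb1 (24.9). Kcnab1 (16.4), Kcnh2 (16.1), Kcnk3 (8.30) and Kcnj12 (4.77) followed. Members not called higher were left out of this list. The order of Kcne4 and Kcna5 was not larger than their spread over strains (SD 14 and 10.3 per kilobase). Among single fibroblast clusters the highest value was again that of Kcne4, in cluster 10 (59.96 per kilobase), followed by Kcnk2 in perimysial cluster 9 (21.4), Kcne4 in endomysial cluster 8 (18.1) and Kcnk5 in endomysial cluster 1 (16.9).

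**Figure D1:**
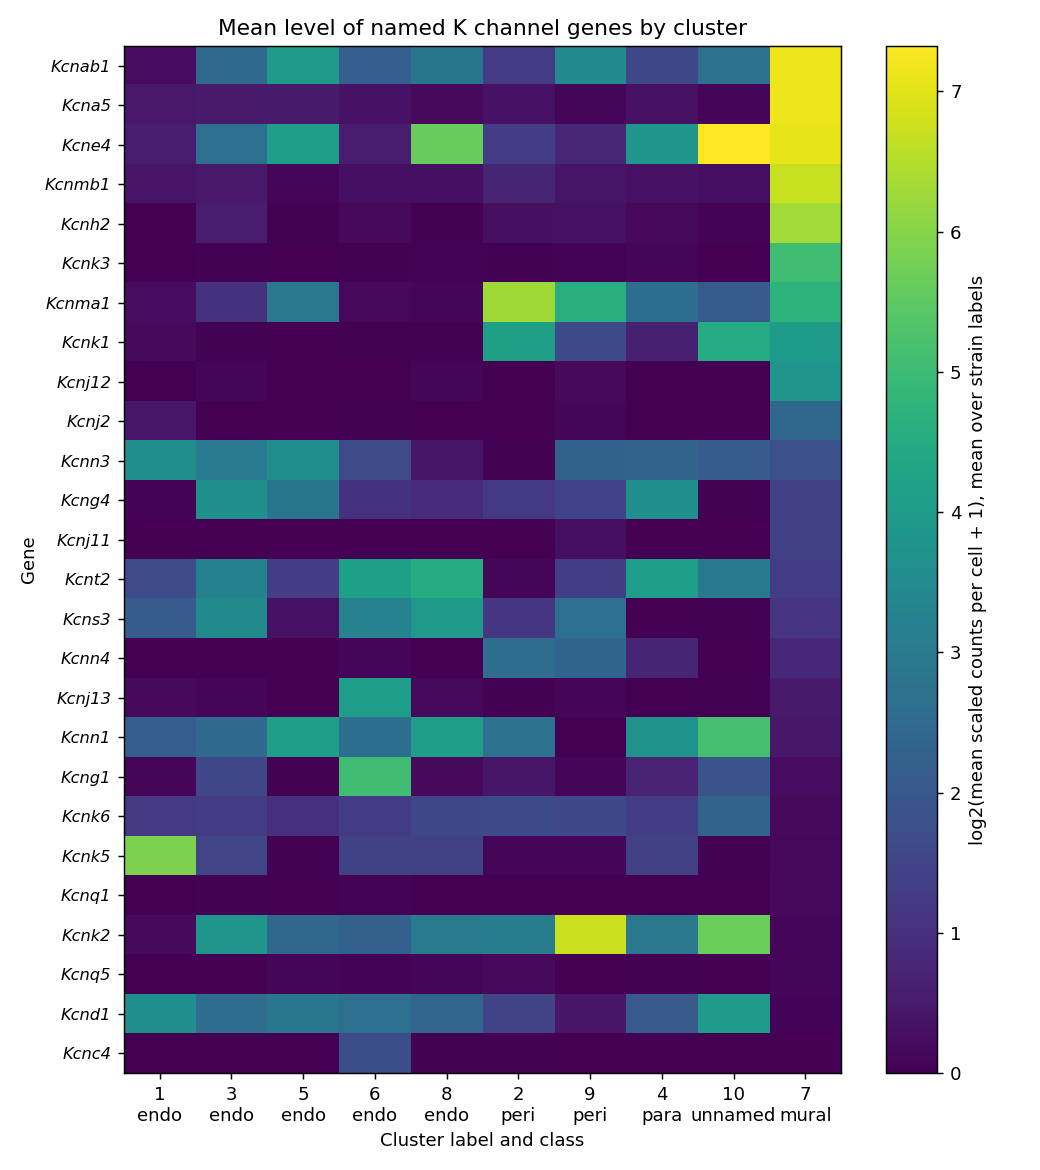
Mean level of 26 potassium channel genes in each cluster, as log2 of the mean scaled counts per cell plus 1, averaged over strain labels, with genes ordered by their mural level. Colours are to be compared along a row, since levels are not divided by gene length here. The top rows are brightest in mural cluster 7, Kcne4 also in cluster 10, Kcnma1 in clusters 2, 9 and 7, Kcnk2 in clusters 9 and 10, Kcnk5 in cluster 1 and Kcng1 in cluster 6.

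The first comparison asked which channel genes set mural cells apart from fibroblasts. Counts summed per strain were tested with edgeR (quasi-likelihood test, Benjamini-Hochberg adjustment over all genes tested, called at an adjusted p under 0.05). The filter on low counts left 25 of the 93 members, and 8 of these were called higher in mural cells and 5 lower. Of all 13880 genes tested, 6.15% were called higher and 9.27% lower. A member with reads in mural cells only passes this filter more easily than one without, so the 25 are not the family. The median log2 fold change was 0.74 over these 25 members and −0.46 over all genes. In the summed counts that were tested, the groups of strain values did not overlap for 12 of the 25 members, 10 of them called. How many of all genes lacked overlap was not counted.

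Kcna5 encodes Kv1.5, a voltage-gated channel of vascular smooth muscle (chr6:126532551-126535412, GRCm38, minus strand). Its mural level was 117.1 in Acta2GFP, 125.5 in C57BL6, 127.3 in Cspg4dsRED, 141.4 in the pool and 191.0 in PdgfrbGFP. In the fibroblasts of the same strains it was 0.898, 0.0105, 0.367, 0.203 and 0.172. Every mural value lay more than 100 above every fibroblast value. The log2 fold change was 9.91 ± 0.89 (SE, adjusted p = 0.000276), and it was higher in 5 of 5 strains. A count was found in 71.66% of the 187 mural cells, with a median of 41 reads in those cells, and in 6.64% of the 1566 fibroblasts, where the median was 1 read and 95.2% of the cells with a count held 1 or 2 reads.

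Kcnab1, which encodes a cytoplasmic β subunit of Kv1 channels, was at 146.0, 123.9, 68.9, 162.8 and 202.0 in mural cells in the same order of strains. Fibroblasts held some of it, with cluster means of 10.2 ± 8.81 (SD, n = 4) in perimysial cluster 9 and 14.6 ± 25.2 (SD, n = 3) in endomysial cluster 5, where 2 of 31 cells held all the counts. The log2 fold change was 6.07 ± 0.58 (SE, adjusted p = 0.00036), with no overlap between the groups. Of the mural cells with a Kcna5 count, 73.9% also held Kcnab1, against 56.6% of the mural cells without Kcna5. Cells of all strains were pooled for these shares, and the part of strain and depth was not tested.

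Kcnmb1, the β1 subunit that tunes the large-conductance calcium-activated BK channel in smooth muscle, was at 117.5, 57.5, 147.6, 88.1 and 111.6 in mural cells, and at most at 1.17 in fibroblasts. The lowest mural value, in C57BL6, was still far above the highest fibroblast value, in Acta2GFP. The log2 fold change was 9.45 ± 0.92 (SE, adjusted p = 0.000387). Counts were found in 62.6% of mural cells, with a median of 40 reads, and in 6.96% of fibroblasts, of which 96.3% held 1 or 2 reads.

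Kcnh2 encodes the ERG channel, best known for repolarising the heart muscle. Its mural level was 125.4 in Acta2GFP, 91.97 in C57BL6, 84.8 in Cspg4dsRED, 79.6 in PdgfrbGFP and 7.54 in the pool. In the pool 1 of 11 mural cells held a count, and in Acta2GFP 42 of 56 cells did. Fibroblast levels stayed at or below 1.08, so the groups did not overlap, and the log2 fold change was 10.14 ± 1.22 (SE, adjusted p = 0.00101).

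Kcnk3, the acid-sensitive leak channel TASK-1 known from pulmonary artery smooth muscle, was lower but even across strains, at 27.3, 23.8, 33.5, 39.2 and 41.3. Fibroblasts stayed at or below 0.0645, and each of the 32 fibroblasts with a count held 1 or 2 reads. The log2 fold change was 9.63 ± 0.89 (SE, adjusted p = 0.000334). In cluster 10, 0 of 62 cells held a Kcnk3 count, which allows a share of up to 4.84%. Kcnj12, the inward rectifier Kir2.2, was at 15.2, 11.98, 21.2, 5.89 and 11.4 in mural cells and at 0 in the fibroblasts of 3 strains, with at most 0.292 in the others (log2 fold change 9.65 ± 1.67, SE, adjusted p = 0.00571). It rested on fewer cells, 23 mural cells (12.3%) with a median of 14 reads.

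Fibroblasts of Acta2GFP had the highest levels of Kcna5, Kcnmb1, Kcnh2, Kcnk3 and Kcnj12 among the 5 strains, and the highest summed level of mural markers (484.1). The part of the latter in these values was not tested.

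Kcne4, a β subunit that dampens Kv channels, was at 139.5, 150.9, 175.2, 120.2 and 76.2 in mural cells and at 16.9, 2.07, 104.7, 11.01 and 10.1 in fibroblasts. The high fibroblast value, in Cspg4dsRED, overlapped with the mural range, and 37 of the 62 cells of cluster 10 came from that strain. The log2 fold change was 3.65 ± 0.84 (SE, adjusted p = 0.0203), higher in 5 of 5 strains, and the call was lost without Acta2GFP, PdgfrbGFP or the pool, with the 3 strains of 30 or more mural cells only (2.49, adjusted p = 0.098) and without the strain block (2.17, adjusted p = 0.128).

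**Figure D2:**
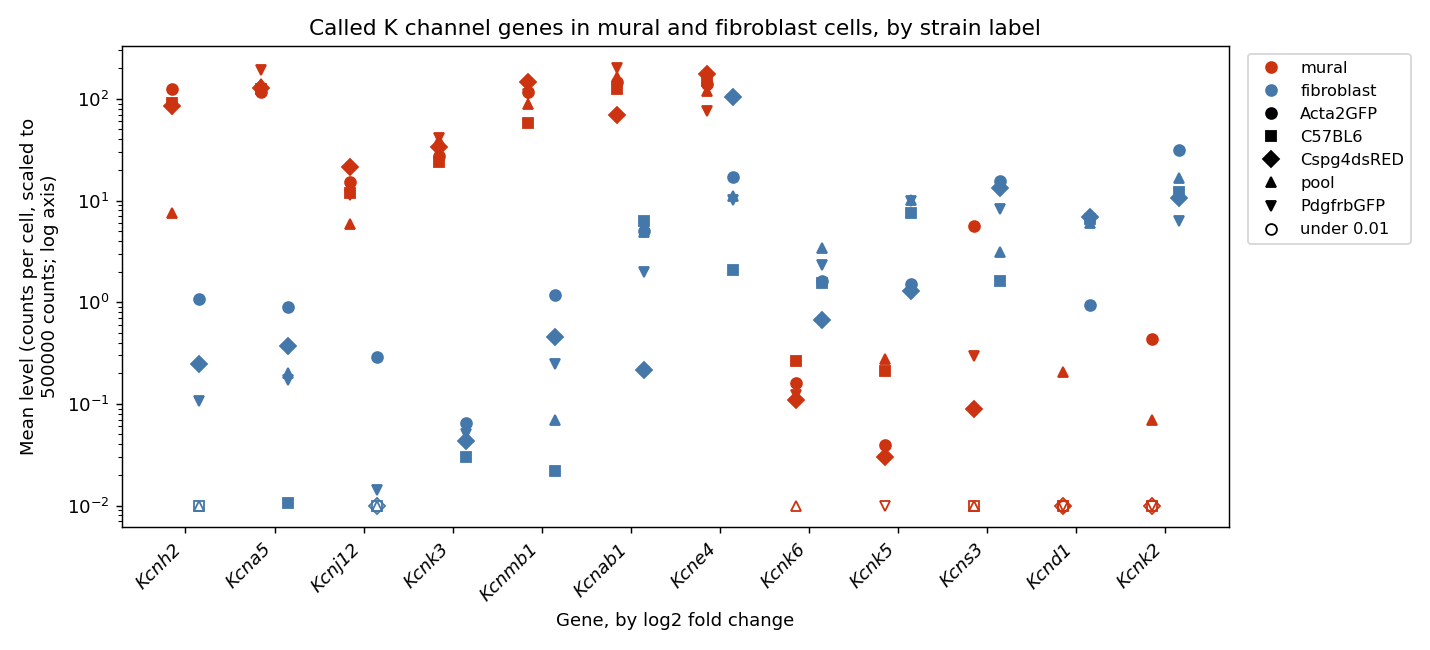
Mean scaled counts per cell (log axis) of 12 of the 13 members called between mural cells (red) and fibroblasts (blue), 1 symbol per strain label, with open symbols for values under 0.01. The 5 strains of Kcnh2, Kcna5, Kcnj12, Kcnk3, Kcnmb1 and Kcnab1 are apart in both classes, while those of Kcne4 and Kcns3 overlap.

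Members lower in mural cells were led by Kcnk2, the mechanically gated leak channel TREK-1. Mural cells held it at 0.434 in Acta2GFP, 0.0692 in the pool and 0 in the other 3 strains, and fibroblasts at 31.3 in Acta2GFP, 12.03 in C57BL6, 10.7 in Cspg4dsRED, 16.7 in the pool and 6.34 in PdgfrbGFP. Mural counts summed to 7, spread over 5 cells, against 13423 in fibroblasts. The groups did not overlap (log2 fold change −8.27 ± 1.21, SE, adjusted p = 0.00252). The annotation places 12.2% of its exons across from an antisense gene, A430027H14Rik, and whether counting used strand is not given in the sources used here.

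Kcnd1, the A-type channel Kv4.1, rested on 3 mural reads of 1 cell against 5783 in fibroblasts, a ratio of read shares of 0.00672 with an exact 95% counting interval of 0.00139 to 0.0197. Its log2 fold change (−7.74 ± 1.72, SE, adjusted p = 0.0171) is no bound at such counts. Kcnk5 (TASK-2) and Kcnk6 (TWIK-2), both leak channels, had 8 mural reads each against 9205 and 2458 (log2 fold changes −5.19 ± 1.26 and −3.86 ± 1.06, SE, adjusted p = 0.0247 and 0.04). Kcns3, a silent voltage-gated subunit, was lower on average (−5.58 ± 1.35, SE, adjusted p = 0.0246) although 1 of the 56 mural cells of Acta2GFP gave 95.8% of its level of 5.64 there, which lies within the fibroblast range. Without PdgfrbGFP or the pool, Kcnk2 was the 1 lower member still called, and without Acta2GFP Kcnk2 and Kcns3 were. Leaving out C57BL6 took away Kcnk5 and Kcnk6, and leaving out Cspg4dsRED took away Kcnk6 and Kcns3.

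Kcna5, Kcnab1, Kcnk2, Kcnk3 and Kcnmb1 were called in each of the 15 other fits run for this comparison. Kcnh2 was called in each of the 14 and Kcnj12 in each of the 12 where they passed the filter. In the fits restricted to the 3 strains with 30 or more mural cells, Kcnma1 (log2 fold change 1.95, adjusted p = 0.029) and Kcnj2 were called higher too, while Kcnd1, Kcne4, Kcnk5, Kcnk6 and Kcns3 were no longer called. Where 9 mural cells with 100 or more scaled counts of endothelial, immune and stem cell markers were left out, 13 members were again called, with Kcnn1 and Kcnn4 among them and without Kcnj12. The part of these other cells in the single-strain values was otherwise not tested.

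BK channels join a pore, encoded by Kcnma1, to the β1 subunit of Kcnmb1, and these genes did not go together across classes. Kcnma1 was at 32.3, 4.15, 53.6, 37.6 and 0.113 in the mural cells of Acta2GFP, C57BL6, Cspg4dsRED, PdgfrbGFP and the pool, and at 33.5, 60.4, 87.5, 82.2 and 60.9 in their perimysial cells. Perimysial values exceeded mural values in each strain, by little in Acta2GFP. Endomysial values were at most 1.39. Against all fibroblasts Kcnma1 did not pass the test in mural cells (log2 fold change 0.27 ± 1.28, SE, adjusted p = 0.931), and its sign changed when Acta2GFP (−0.52), Cspg4dsRED (−0.47) or PdgfrbGFP (−0.46) was left out.

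Among mural cells, 38 of the 53 with a Kcnma1 count also held Kcnmb1 (71.7%), against 58.96% of those without Kcnma1. Among perimysial cells 15 of 159 did (9.43%), against 5.92% of those without. These shares pool the cells of all strains, and the part of strain and depth in them was not tested. Kcnma1 was read in perimysial cells mostly without a read of Kcnmb1. The level of Kcnmb1 there was 0 to 1.54 per strain. About 6.0% of the Kcnma1 exons lie across from an antisense gene.

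The remaining channel genes known from vascular smooth muscle were read in some strains or scarcely at all. Kcnj2 (Kir2.1) was at 7.74 in Acta2GFP, 13.6 in PdgfrbGFP, 0.862 in Cspg4dsRED and 0 in the others. Kcnj11, the pore of the KATP channel Kir6.2, reached 5.88 in PdgfrbGFP and 1.86 in Acta2GFP. Both were within 0.211 of 0 in fibroblasts. Kcnq1 and Kcnq5 stayed at or below 0.582 in the mural, perimysial, endomysial and cluster 10 cells of each strain. The leak channel gene Kcnk1 was at 11, 0, 16.5, 43.1 and 5.98 in the mural cells of Acta2GFP, C57BL6, Cspg4dsRED, the pool and PdgfrbGFP (log2 fold change 0.74 ± 1.31, SE, adjusted p = 0.785), and the sign turned without the pool (−0.13). Of the 16 genes on the list of vascular potassium channels, which overlaps with the members just given, 12 were tested, 7 were called higher and 1 (Kcnk2) lower, where 6.15% and 9.27% of all genes were. The list was chosen with earlier results of these data known. A gene with reads in mural cells only also passes the filter more easily. The shares of all genes are therefore no yardstick for this list.

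**Figure D3:**
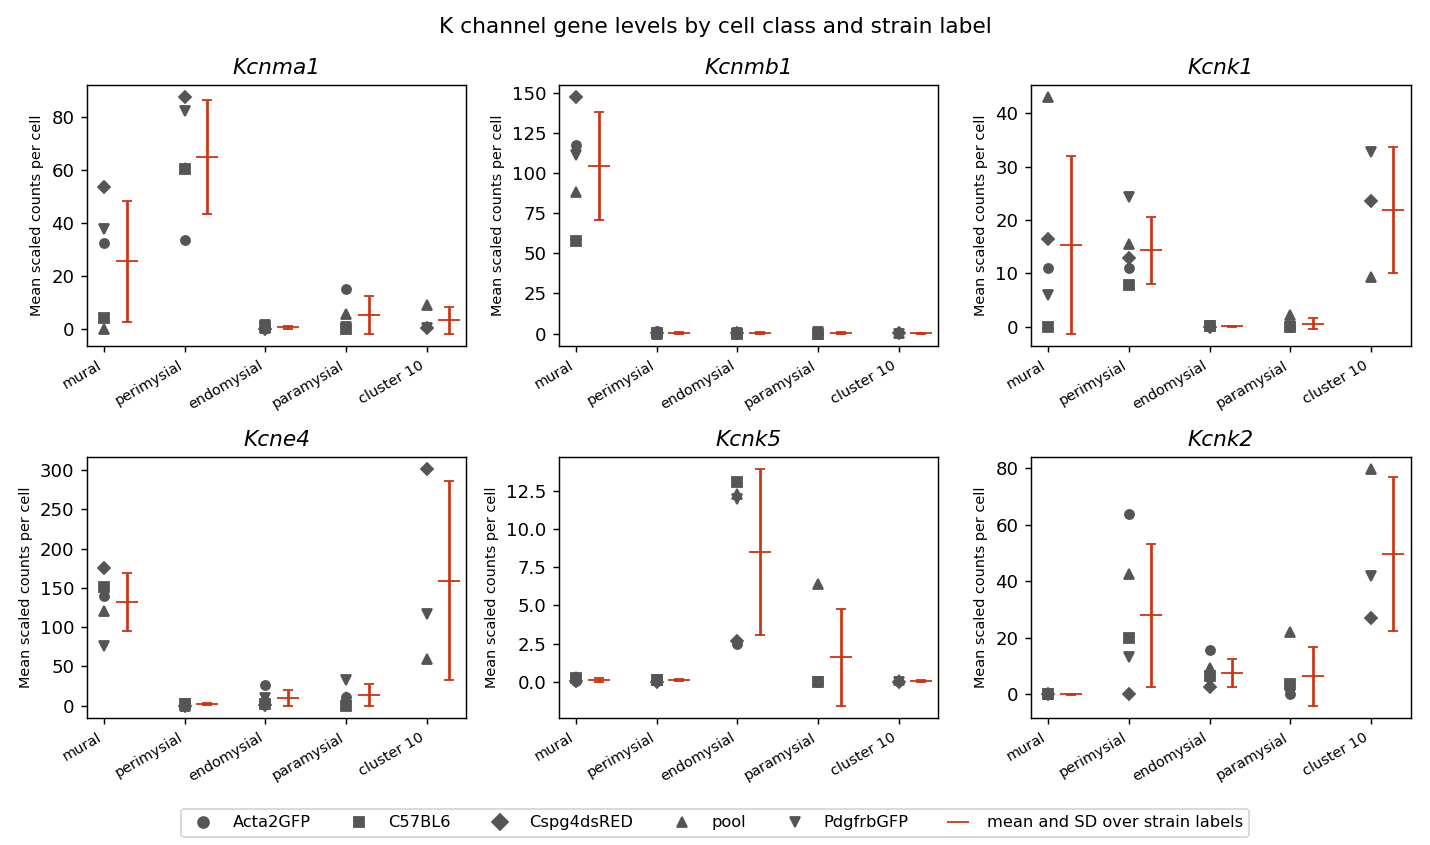
Mean scaled counts per cell of 6 members in the 5 cell classes, with 1 grey symbol per strain label and the mean and SD over strain labels in red. Kcnmb1 is high in mural cells, Kcnma1 in mural and perimysial cells, Kcnk1 in mural, perimysial and cluster 10 cells, Kcne4 in mural and cluster 10 cells, Kcnk5 in endomysial cells, and Kcnk2 in perimysial and cluster 10 cells, with lower values in endomysial and paramysial cells.

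The second comparison set perimysial against endomysial fibroblasts. Of 20 members tested, 3 were called higher and 2 lower, where 2.32% and 3.26% of all 14121 genes tested were called. The median log2 fold change was −3.08 over these members and −0.19 over all genes. All 5 called members moved the same way in 5 of 5 strains without overlap. The share of all genes without overlap was not computed.

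Kcnma1 was 1 of the 3 higher members, with the levels given above and a log2 fold change of 6.84 ± 0.61 (SE, adjusted p = 0.000844). It was read in 159 of 328 perimysial cells (48.5%) and 92 of 1116 endomysial cells (8.24%), 83 of the latter with 1 or 2 reads. Kcnk1 (TWIK-1) was at 10.9 in Acta2GFP, 7.87 in C57BL6, 12.9 in Cspg4dsRED, 24.3 in PdgfrbGFP and 15.5 in the pool in perimysial cells, and at 0 to 0.0586 in endomysial cells. The log2 fold change was 8.85 ± 0.78 (SE, adjusted p = 0.000838). It came from 34 perimysial cells (10.4%), with a median of 62 reads.

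Kcnn4, the intermediate-conductance calcium-activated channel, was called higher as well (8.33 ± 1.02, SE, adjusted p = 0.00358), at 19.8 in Cspg4dsRED and 1.14 to 3.00 in the other strains. It was held by 13 perimysial cells, and in each strain 1 cell carried 93.35% to 100% of the level. In endomysial cells it had 6 reads. Lower members were Kcnk5 (−6.65 ± 0.89, SE, adjusted p = 0.00509), with 17 perimysial reads against 8744 endomysial reads, and Kcnt2, a sodium-activated channel, at 0 to 1.06 in perimysial and 8.07 to 16.9 in endomysial cells (−5.16 ± 0.97, SE, adjusted p = 0.0217). The call of Kcnt2 was lost without Acta2GFP, C57BL6 or PdgfrbGFP, and without Cspg4dsRED 5 members in place of 3 were called higher.

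Kcnk2 split the perimysial clusters. In cluster 9 it was at 94.2 in Acta2GFP, 168.0 in C57BL6, 35.3 in PdgfrbGFP and 125.6 in the pool, and in cluster 2 at 5.37, 7.28, 9.57 and 15.1 in the same strains. The lowest cluster 9 value exceeded the highest cluster 2 value. Counts were found in 33 of 59 cells of cluster 9 and 35 of 269 of cluster 2. Kcnma1 went the other way, at 23.7 ± 8.39 (SD, n = 4) in cluster 9 and 77.1 ± 17.8 (SD, n = 5) in cluster 2. No test was set for this pair of clusters.

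Cluster 10, found in 3 strains and mostly in Cspg4dsRED, was compared with endomysial cells. None of 17 members tested was called by edgeR (0.265% of 12455 genes were called higher and 0.177% lower). The median log2 fold change was −1.12 over these members and −0.41 over all genes. At an unadjusted p under 0.05 there were 7, and DESeq2 called 8. The share over all genes is given for neither count, so neither is read as a result about the members. The members furthest above endomysial cells were Kcnt1, a sodium-activated channel, at 8.23 in Cspg4dsRED, 71.8 in PdgfrbGFP and 38.6 in the pool (log2 fold change 10.25 ± 1.68, SE, adjusted p = 0.0937), and Kcnk1, at 23.6, 32.7 and 9.25 (8.95 ± 1.80, SE, adjusted p = 0.171). Kcnt1 was read in 10 of the 62 cells (16.1%) and in 0.986% of endomysial cells. In PdgfrbGFP, 1 of 8 cells carried 94.5% of it, and 1 cell of that strain carried 99.8% of Kcne4. Kcnk1 was read in 8 of the 62 cells. In each strain 1 cell carried most of its level, 67.9% in Cspg4dsRED, 57.4% in PdgfrbGFP and 98.8% in the pool.

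Kcne4 was at 301.7, 116.2 and 59.9 in cluster 10 (5.04 ± 1.16, SE, adjusted p = 0.216), Kcnk2 at 27.1, 42.1 and 79.8 (3.14 ± 0.79, SE, adjusted p = 0.269), and Kcnn1, a small-conductance calcium-activated channel, at 20.1, 40.6 and 42.9 (1.72 ± 0.89, SE, adjusted p = 0.727). Each of these was above the endomysial value in 3 of 3 strains, without overlap, but not past the threshold. Other members were below it in 3 of 3 strains without overlap, and not past the threshold either. They were Kcne1l (−12.41 ± 4.15, SE), with 0 reads in cluster 10, Kcns3 (−8.20 ± 2.40, SE) and Kcnk5 (−7.63 ± 2.27, SE). The summed level of endothelial markers was 270 in the PdgfrbGFP cells of the cluster, from 1 cell, and at most 10.7 in the other strains, and its part in the values was not tested. Without Cspg4dsRED, Kcne4 and Kcnt1 were called. Paramysial cells, fitted in 4 strains, had no called member by edgeR among 19 tested (0.0757% of 14533 genes were called higher and 0.0206% lower), with 4 at an unadjusted p under 0.05. DESeq2 called 3 lower there, among them Kcnk5 and Kcns3. These 2 counts are also given without a share over all genes and are not read as a result about the members.

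**Figure D4:**
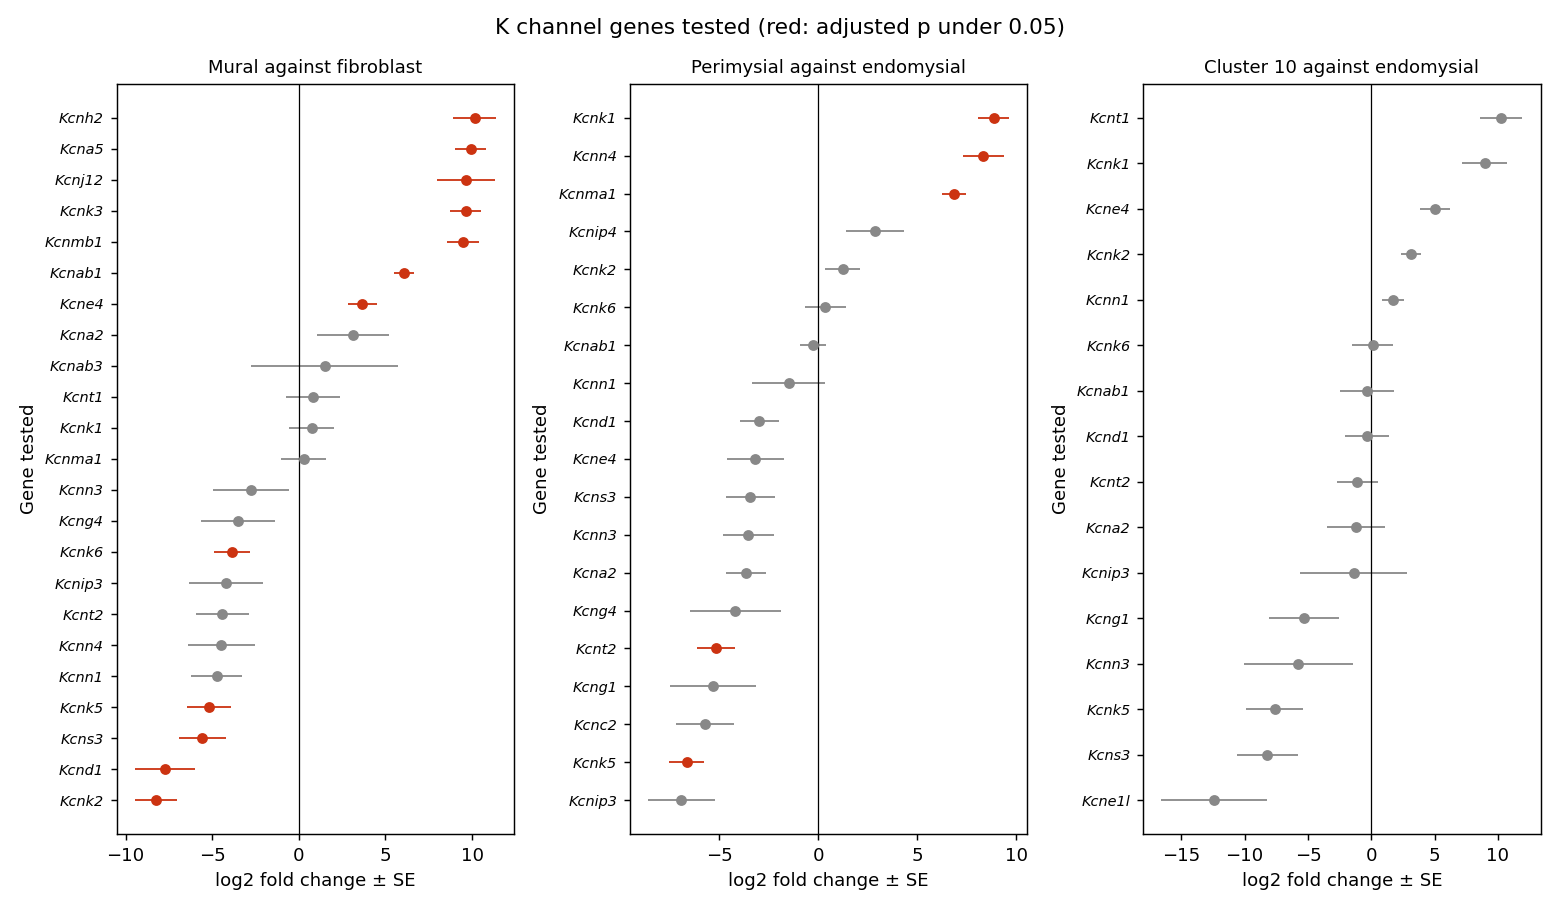
Fitted log2 fold changes with standard errors of members tested in mural against fibroblast cells (23 shown), perimysial against endomysial cells (19 shown) and cluster 10 against endomysial cells (16 shown), with members past an adjusted p of 0.05 in red. Red members lie on both sides of 0 in the first and second comparison, and none is red in the third.

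Among endomysial clusters 1, 3, 6 and 8, 5 of 31 members tested differed (16.1%), where 5.18% of 16421 genes were called by the same F test of edgeR. The fit held 4 strains, with no cluster 6 in Acta2GFP, and left out Cspg4dsRED, which had cluster 6 but too few cells of the others. At an unadjusted p under 0.05 there were 11, a count given without the share over all genes and not read further. The 5 called members were silent Kv subunits (Kcng1, Kcng4), a leak channel (Kcnk5), a small-conductance calcium-activated channel (Kcnn3) and a Kv3 channel (Kcnc4).

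Kcng1 was highest in cluster 6, at 31.1 in C57BL6, 32.7 in Cspg4dsRED, 28.1 in PdgfrbGFP and 38.5 in the pool, and at 0.126 to 4.16 in cluster 3 and at most at 0.529 in clusters 1 and 8 (adjusted p = 0.00118). It was read in 51 of the 229 cells of cluster 6 in these 4 strains. Kcnk5 was highest in cluster 1, at 24.6 in Acta2GFP, 77.6 in C57BL6, 68.1 in PdgfrbGFP and 59.5 in the pool, and at most at 4.84 in clusters 3, 6 and 8 (adjusted p = 0.0144). In both, no strain of another cluster came near the highest cluster. In each strain Kcnk5 was highest in cluster 1.

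Kcng4 stood at 6.78 to 15.2 in cluster 3 and at most at 3.82 in clusters 1, 6 and 8 (adjusted p = 0.0216). Outside the tested clusters single strains were higher, at 18.5 in endomysial cluster 5 of C57BL6 and 40.5 in paramysial cluster 4 of PdgfrbGFP. Kcnn3 was at 0.174, 12.8, 14.5 and 19.1 in cluster 1 and at 1.71, 9.22, 2.65 and 14.4 in cluster 3, in the order Acta2GFP, C57BL6, PdgfrbGFP and pool, and lower in cluster 8 with at most 1.22 (adjusted p = 0.0224). Values of clusters 1 and 3 overlapped. Kcnc4 rested on 5 cells of cluster 6, with a highest level of 8.17 in C57BL6 (adjusted p = 0.039). Each of the 4 calls apart from Kcng1 was lost without the pool, which left 1 of 5. Without PdgfrbGFP Kcnc4, Kcnk5 and Kcnn3 were lost, without C57BL6 Kcnc4, Kcng4 and Kcnk5, and without Acta2GFP Kcng4.

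Muscle of origin was recorded in the pool and PdgfrbGFP. Endomysial Kcnk5 was at 14.6 in gastrocnemius and 8.23 in soleus in the pool, and at 10.8 and 0.0272 in PdgfrbGFP. Both strains were higher in gastrocnemius, but each muscle lay on its own plate, so muscle and plate cannot be told apart, and no test was run. Cluster 1, the main source of Kcnk5, held 16.5% and 19.4% of the endomysial cells of gastrocnemius and soleus in the pool, and 14.3% and 0% (0 of 90 cells, which allows up to 3.33%) in PdgfrbGFP.

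Most of the family was hardly read. Of the 93 members, 40 had no count in the 187 mural cells, which allows each a share of up to 1.6% of cells with a read. The 12 without a count anywhere were Kcna7, Kcna10, Kcnd2, Kcne1, Kcng3, Kcnh4, Kcnh5, Kcnj6, Kcnk4, Kcnk15, Kcnk16 and Kcnmb3, several of them known from heart or nerve cells. In 1566 fibroblasts a count of 0 allows a share of up to 0.192%. A further 25 members were read in fewer than 10 cells, among them Kcnj3, Kcnj4 and Kcnj9 of the inward rectifiers. Kcnj13 shows how single cells can set a level. Its endomysial level was 58.6 in Cspg4dsRED and at most 0.226 elsewhere, 1 of the 2 cells with a read gave 76.6% of it, and 49.1% of its exons lie across from Gigyf2.

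Other genes of the same ion balance were read from lists. Of all genes tested in mural cells, 6.15% were called higher and 9.27% lower. A gene with reads in mural cells only passes the filter more easily. These shares are therefore no yardstick for the lists, and the counts are no result about a pathway. Of 12 partners of potassium channels outside the family, 8 were tested in mural cells, and Abcc8 (10.65 ± 1.77, SE, adjusted p = 0.00467), a sulfonylurea receptor of KATP channels, and Cav1 (2.06 ± 0.27, SE, adjusted p = 0.00152), the caveolae protein, rose, while Lrrc55 (−6.15 ± 1.21, SE, adjusted p = 0.0103), a BK γ subunit, fell. Abcc9, the receptor of the vascular KATP channel, was at a log2 fold change of 3.73 ± 1.51 (SE, adjusted p = 0.15). The median over the 8 was 0.92.

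Of 12 voltage-gated calcium channel genes, 8 were tested in mural cells and 4 rose, namely Cacna1c (4.91 ± 0.74, SE, adjusted p = 0.00305), the L-type pore of smooth muscle, the T-type pores Cacna1h (9.65 ± 1.02, SE) and Cacna1g (2.02 ± 0.38, SE), and Cacnb2 (4.41, adjusted p = 0.0198). None fell, and the median was 1.11, where 6.15% and 9.27% of all genes were called higher and lower. Of 13 sodium pumps and cotransporters, 12 were tested, 3 rose and 2 fell, with a median of 0.02 against −0.46 over all genes. In perimysial against endomysial cells, Cacnb2 (5.88 ± 1.03, SE, adjusted p = 0.0168) and Fxyd6, a regulator of the sodium pump (2.70 ± 0.27, SE, adjusted p = 0.00144), rose. Fxyd1, another such regulator, fell (−1.17 ± 0.23, SE, adjusted p = 0.0283), and Abcc9 fell (−5.70 ± 0.84, SE, adjusted p = 0.0123).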

How the data were processed

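Fibroblasts and mural cells of mouse skeletal muscle had been sorted singly and sequenced with Smart-seq2, which carries no molecular identifiers, so reads are not independent molecules and intervals cover counting error only. The authors deposited unnormalised read counts for each gene in each cell. Per the methods and the submitters' processing notes, reads were demultiplexed with bcl2fastq, trimmed with trim galore, mapped to GRCm38 (mm10) with TopHat2 through Bowtie or Bowtie2, and counted with featureCounts of Subread. The annotation release and the use of strand are not given in the sources used here. The authors treated doublets by gating and an upper limit on genes per cell, removed cells with endothelial or immune signatures, and compared single cells with monocle. No doublet caller was run here. Of the columns, 1753 matched a labelled cell and 1 column without a label was not used. No pair of cells had identical counts (0 pairs). Spike-ins (92) took 1.31% of counts and were left out. Symbols came from GENCODE M21, which matched 46005 of 46517 gene identifiers. The label of the extraction protocol speaks of heart dissociation with a muscle kit, while the tissue label reads skeletal muscle, and the latter was used.

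Counts were summed over the cells of a class within each strain label (3 or more cells) and tested with edgeR 4.0.16 in R 4.3.3 (TMM, filterByExpr, quasi-likelihood F test, strain as block), with Benjamini-Hochberg adjustment over all genes tested. SE is the absolute log2 fold change divided by the square root of F. The labels name no animal, so p-values weigh a difference between classes against its variation from strain label to strain label. The level of each strain is taken out by the block. The sources used here do not say if any mouse gave cells to both PdgfrbGFP and the pool. Pairing rests on the strain label. Levels are means of cells scaled to 500000 counts. Shares were also computed after thinning each cell to 50000 counts, which left out 4 cells.

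Genes named in the text were those called in mural cells, up to 6 called per direction elsewhere, up to 12 with the highest level per kilobase, and a list of vascular channel genes whatever their values. The promoter motifs were chosen after levels had been seen. Exact intervals are at 95%, and a count of 0 was read as up to 3 counts. Some further members with few counts, with no call or from the pathway lists are named for accounting, and some genes that the rule names are not reported here. The members, lists and tests were chosen with earlier results of these data known. Alternatives were DESeq2 1.42.0, RLE size factors, no filter, no block, plate as unit, cells weighted alike, cells of 100000 or more counts, endomysial cells only, and each strain left out. After the data had been seen, fits without cells of 100 or more scaled counts of endothelial, immune and muscle stem cell markers and with strains of 30 or more mural cells were added. The fits were tested on simulated data.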

Additional observations from a re-analysis of the deposited data

Results flagged for a closer look

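A strain label stood apart from the others in 6 of 24 groups of strain levels looked at, by the gap to the nearest other value divided by the range. Chance flags about 1 in 20 such groups where values spread as in a normal sample, which groups made mostly of zeros do not. In mural cells, Kcnd1 was at 0.208 in the pool (0 in the others), Kcnk2 at 0.434 in Acta2GFP (at most 0.0692 in the others) and Kcns3 at 5.64 in Acta2GFP (at most 0.292). In perimysial cells, Kcnn4 was at 19.8 in Cspg4dsRED (1.14 to 3.00 in the others) and Kcnt2 at 1.06 in the pool (at most 0.237). In endomysial cells, Kcnn4 was at 0.164 in Cspg4dsRED (at most 0.0157). The values of Kcnd1, Kcnk2 and endomysial Kcnn4 rest on few reads. In the strain that stood apart, 1 cell carried 95.8% of the mural Kcns3 level, 93.35% of the perimysial Kcnn4 level and 85.5% of the perimysial Kcnt2 level.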

How the results depend on the processing

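The strain label paired the classes as a block. With no replicate block, mural cells had 7 members higher and 5 lower, and Kcne4 and Kcns3 lost their call. The perimysial count remained 3 higher and 2 lower, and 5 endomysial members were called, 3 of them the same as with the block. DESeq2 called 8 members lower in mural cells (5 in edgeR), 12 lower in perimysial (2), 3 lower in paramysial (0), 4 higher and 4 lower in cluster 10 (0), and 9 among endomysial clusters (5). Without the filter on low counts, 5 members were higher in perimysial cells and 3 in cluster 10. With the plate as the unit, 4 were lower in perimysial cells, 1 higher in cluster 10 and 8 differed among endomysial clusters. Cells of 100000 or more counts left 1 lower perimysial member, cells weighted alike 3 endomysial members, and strains with 30 or more mural cells 1 lower mural member. With each strain left out in turn, lower mural members numbered 1 to 4, higher perimysial members 3 to 5, lower perimysial members 1 to 3, higher cluster 10 members 0 to 2 and endomysial members 1 to 4. The cause was not tested, and shares over all genes are not given for these alternatives. Kcnma1 in mural cells turned sign with cells weighted alike (−0.13), without cells rich in other markers (−0.07) and without Acta2GFP (−0.52), Cspg4dsRED (−0.47) or PdgfrbGFP (−0.46), and Kcnk1 without the pool (−0.13). With each strain left out, the log2 fold change ranged from −0.52 to 1.15 for Kcnma1 and from −0.13 to 1.54 for Kcnk1. The small number of mural cells in C57BL6 (9) and the pool (11) limits what their levels can show. Cells with 100 or more scaled counts, the detection limit of the study, were also counted. The share of mural cells, as a mean over strain labels, was then 41.2% for Kcna5 and 33.55% for Kcnmb1. The shares given with these genes above pool all mural cells instead.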
